A study of Mus musculus with 22 samples.

Results

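The effect of sustained exercise on cardiac fibroblasts was examined by comparing messenger RNA from mice that had swum for 10 days (3 libraries) with that from sedentary mice (3 libraries), which are 6 of the 22 libraries of the study. They were chosen by the condition in their labels and not by any measured value. All animals were male C57BL/6 mice of the wild type genotype, at postnatal weeks 10 to 14, and the tissue was given as cardiac fibroblast from the heart. Swimming was the only labelled difference between the groups. The labels give no training schedule, no time of day of collection and no purification step for the fibroblasts, and they do not say whether each library came from a separate animal. Fibroblasts after 4 days of swimming (3 libraries) and 10 days after TAC (3 libraries), in male wild type mice of the same strain and age range, were used to place the 10 day swim group beside a shorter exercise period and a disease model. TAC was read as transverse aortic constriction, surgery that narrows the aorta and loads the left ventricle with pressure, although the labels give only the abbreviation. Expression was given as FPKM, a fragment count divided by the length of the transcript and by the size of the library.

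Cardiac fibroblasts make and remodel the collagen network that holds heart muscle cells together, and they signal to those cells through growth factors and cytokines. Under injury or pressure overload they turn into myofibroblasts, contractile cells rich in smooth muscle actin that deposit collagen and periostin and stiffen the heart. Repeated endurance exercise enlarges the heart without the scarring that marks disease, and antioxidant enzymes, mitochondrial genes and circadian output genes are among the programmes known to respond to training in other tissues.

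The 6 libraries differed in several ways besides the label. Total FPKM was 147541 to 158695 in the swim libraries and 85128 to 119382 in the sedentary libraries. Depth relative to the shallowest fibroblast library, estimated from the smallest FPKM steps because the table holds no read counts, was 1.46 to 2.36 in the swim libraries and 1.99 to 3.20 in the sedentary libraries, so the absolute depth is unknown. Rn45s, the precursor of ribosomal RNA, was listed at 1085, 1814 and 801 FPKM in the swim libraries and at 171, 273 and 202 FPKM in the sedentary libraries. Haemoglobin, a sign of red blood cell RNA, varied within both groups: Hba-a1 stood at 180, 6313 and 1137 FPKM after swimming and at 29.4, 934 and 4201 FPKM in sedentary mice. Swim library 2 and sedentary library 3 held the most of it in their groups, and the groups overlapped.

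The swim libraries also carried relatively less signal from long transcripts. The slope of log2(FPKM + 1) on the log2 of transcript length was -0.525, -0.642 and -0.563 per doubling of length in the swim libraries and -0.175, -0.295 and -0.213 in the sedentary libraries, a mean of -0.577 ± 0.0596 (SD, n = 3) against -0.228 ± 0.0613 (SD, n = 3). The groups did not overlap, and the exact two-sided permutation test gave p = 0.1, the smallest value that 3 libraries against 3 can give. The 4 sham and MI (read as myocardial infarction) libraries had slopes of -0.209 to -0.238, within the sedentary range, while the 9 libraries from 4 days of swimming and from TAC had slopes of -0.623 to -0.898. Because the slope moves with the groups, the comparison with sedentary fibroblasts was computed in 2 ways. These were on the values as deposited and after a smooth trend on transcript length had been taken out of each library. For the gene lists, comparisons that involve 4 day swim or TAC were counted only on the values as deposited.

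Sustained swimming was accompanied by widespread differences. Of 9425 genes tested, 4107 differed at a Benjamini-Hochberg adjusted p under 0.05 in limma, which is 43.6% of the genes. Of these, 2823 genes (30%) were higher after 10 days of swimming and 1284 genes (13.6%) were lower. The libraries of the groups did not overlap for 5234 of the 9425 genes (55.5%), so a lack of overlap in a named gene is common among all genes. With the length trend removed, 3144 of 9316 genes were called (33.7%), of which 2536 genes (27.2%) were higher and 608 (6.53%) were lower, and 2192 genes were called in the same direction both ways. Of the higher calls that had a transcript length, 64.1% were kept, against 32.3% of the lower calls. Those figures used the longest annotated transcript of each gene. With the median length of a gene's annotated transcripts instead, 2780 genes were higher and 1030 lower, and 3022 were called the same way as deposited. The loss of lower calls therefore depends on the length chosen. The share of calls that were higher, 68.7% as deposited, was 52.6% when each library was scaled to a common median (2203 higher and 1986 lower) and 52.8% under quantile normalization (2344 higher and 2098 lower). Those 2 scalings moved the median log2 fold change of all genes, 0.14 as deposited, by -0.11 each, so small differences in either direction depend on the scaling.

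The length pattern was steep. Genes called higher had a median transcript length of 1905 bases and genes called lower 5509 bases, against 3065 bases for all genes with a length. In the decile of genes with the shortest transcripts, 66.2% were called higher and 1.39% lower, at a median log2 fold change of 0.87. In the decile with the longest, 3.22% were called higher and 53.8% lower, at a median of -0.44. Once the trend was removed these shares became 35.1% higher and 7.73% lower in the shortest decile and 26.0% higher and 7.95% lower in the longest. Across the 9316 genes, Spearman's rho between the log2 fold change and length was -0.595 as deposited and -0.0053 after removal, a description over genes, which are not independent replicates.

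**Figure D1:**
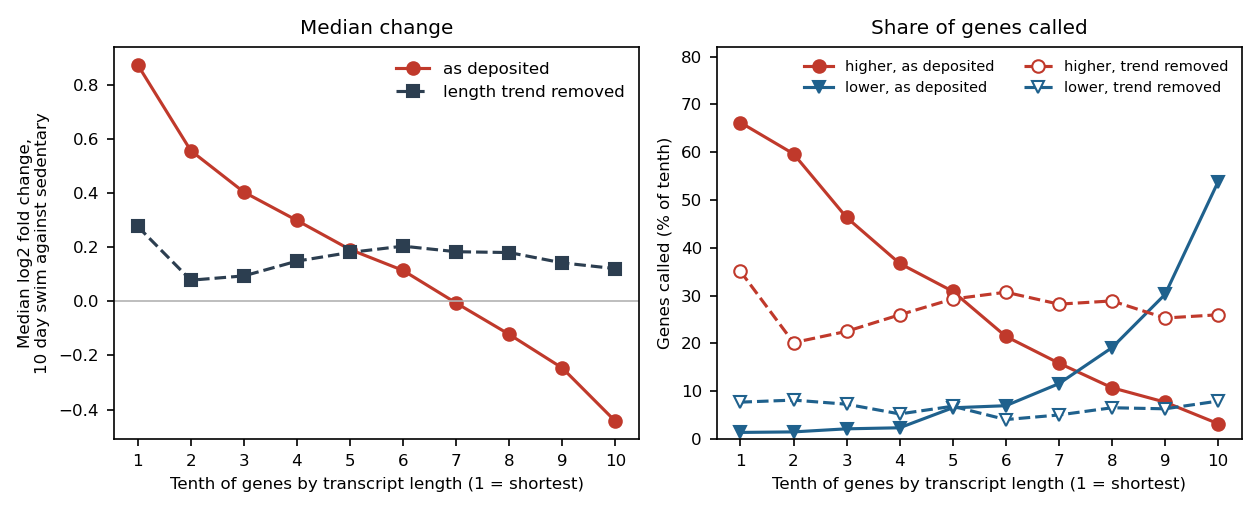
Median log2 fold change of 10 day swim against sedentary fibroblasts (left) and the percentage of genes called higher or lower (right) in deciles of genes ordered by transcript length, on the values as deposited (solid lines) and with the length trend removed (dashed lines). The deposited medians fall from 0.87 in the shortest decile to -0.44 in the longest, while the medians after removal stay between 0.08 and 0.28.

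Inmt, which encodes indolethylamine N-methyltransferase and was listed among the resting fibroblast markers, showed the largest rise among the genes that held in both fits. It stood at 78.1, 101 and 118 FPKM in the swim libraries and at 9.56, 11.4 and 18.9 FPKM in the sedentary libraries, so every swim library lay far above every sedentary one. The log2 fold change was 2.84 ± 0.41 (SE, limma adjusted p = 7.65e-05), and 2.26 with the length trend removed. Nmb, the precursor of the peptide neuromedin B, was at 36.3, 47.2 and 55.2 FPKM after swimming against 6.67, 7.16 and 9.05 FPKM, a log2 fold change of 2.44 ± 0.36 (SE). Wisp2, a secreted protein of the CCN matricellular family that lacks the C-terminal domain of its relatives, was at 22.6, 36.8 and 25.2 FPKM against 4.84, 3.96 and 6.43 FPKM, a log2 fold change of 2.26 ± 0.26 (SE). Neither gene's groups overlapped, and both calls held with the length trend removed at log2 fold changes of 1.79 and 1.88. Groups without overlap and a call in both fits were conditions for naming the largest rises and falls, so neither is a finding about those genes. S100a4, a small calcium-binding protein often used as a fibroblast marker, rose by 2.23 ± 0.30 (log2, SE) from 17.4 to 21.6 FPKM in sedentary mice to 92.2 to 95.5 FPKM.

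Chemokine genes led the falls among the genes that held in both fits. Ccl5, a chemokine that draws T cells and monocytes, fell from 148, 154 and 39.5 FPKM in sedentary fibroblasts to 9.84, 2.20 and 5.82 FPKM, a log2 fold change of -3.98 ± 0.53 (SE, limma adjusted p = 5.8e-05). Cxcl5, a neutrophil attractant, stood at 64.2, 100 and 7.63 FPKM in sedentary mice and at 4.85, 1.5 and 4.67 FPKM after swimming, a log2 fold change of -3.14 ± 0.81 (SE). Sedentary library 3 was the lowest of its group for both genes but still lay above all swim libraries. Selp, encoding the adhesion molecule P-selectin, fell by 2.68 on the log2 scale, Prg4, the lubricating proteoglycan lubricin, by 2.13, and Mmp13, a collagenase, by 1.98. Each of these 5 calls held after removal of the length trend, which was a condition for naming the largest falls. The log2 fold changes were then -4.63, -3.47, -2.55, -1.87 and -2.04 in the order given. Ahnak, a very large scaffold protein with a transcript of 18100 bases, fell by 1.86 as deposited and by 1.05 with the length trend removed.

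**Figure D2:**
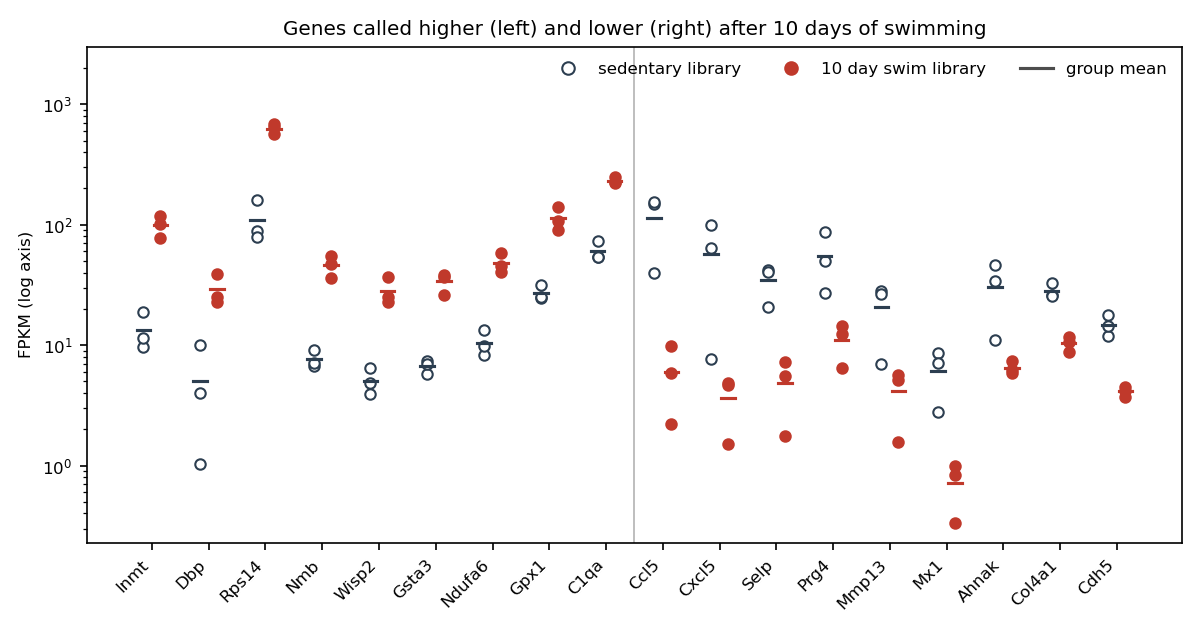
FPKM (log axis) of 9 genes called higher (left) and 9 called lower (right) after 10 days of swimming, with 1 point for each library and a bar at each group mean. The filled swim points and open sedentary points do not overlap for any of the 18 genes, and Mmp13 comes closest, with 5.67 FPKM in the highest swim library and 7.04 FPKM in the lowest sedentary one. A lack of overlap was required of the genes named as the largest rises and falls.

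Genes of protein synthesis and of the respiratory chain made up the broadest rise. Of 49 cytosolic ribosomal protein genes tested, 48 were higher after swimming and none lower (median log2 fold change 1.71, against 0.14 for all genes tested), and again 48 and none with the length trend removed (median 1.23). Rpl4 was the gene that did not pass. Rps14, a protein of the small subunit, stood at 562, 681 and 642 FPKM in the swim libraries and at 89.3, 161 and 79.4 FPKM in the sedentary libraries, a log2 fold change of 2.57 ± 0.29 (SE). Rps23 and Rpl38 rose by 2.32 and 2.26 on the same scale. Every swim library was above every sedentary library for these 3 genes. Sedentary library 2, which also had the highest Rn45s of its group, had the highest level of each in that group. Ribosomal protein genes have many near-identical processed copies, between which the authors' counting could have split reads, so their individual levels are uncertain.

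Among nuclear genes for subunits of the oxidative phosphorylation complexes, 48 of 52 tested were higher and none lower (median 1.33), and 41 were higher with the length trend removed (median 0.83). Ndufa6, a subunit of complex I, was at 40.4, 58.7 and 45.6 FPKM after swimming and at 8.26, 13.3 and 9.91 FPKM in sedentary mice, a log2 fold change of 2.11 ± 0.27 (SE). Uqcrh, a hinge protein of complex III, rose by 2.08 ± 0.28 (SE) from 25.8 to 49.1 FPKM up to 128 to 159 FPKM. Cox6c, a subunit of cytochrome c oxidase, rose by 1.88, and by 1.92 with the trend removed. Its length was taken as 3038 bases, that of its longest annotated transcript, which need not be the one expressed. The 4 genes that did not pass were Ndufa10, Ndufs1, Sdha and Cox5a. Mitochondrial ribosomal proteins followed with 23 of 30 higher and none lower (14 with the trend removed), among them Mrpl52, which went from 5.66, 10.0 and 7.01 FPKM to 22.6, 27.8 and 23.5 FPKM. Lars2, the mitochondrial leucyl-tRNA synthetase, was listed at 440, 428 and 523 FPKM after swimming against 93.4, 193 and 42.4 FPKM, a log2 fold change of 2.32 ± 0.50 (SE). Rn45s was also higher in every swim library than in every sedentary one, and the part of ribosomal RNA reads in the listed Lars2 level was not tested. These lists consist mostly of short transcripts, with median lengths of 1120 bases for the ribosomal and 1186 bases for the respiratory genes. Total FPKM, the length slope and Rn45s all moved with the same 2 groups of libraries, and their part in the rises that remained was not tested.

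**Figure D3:**
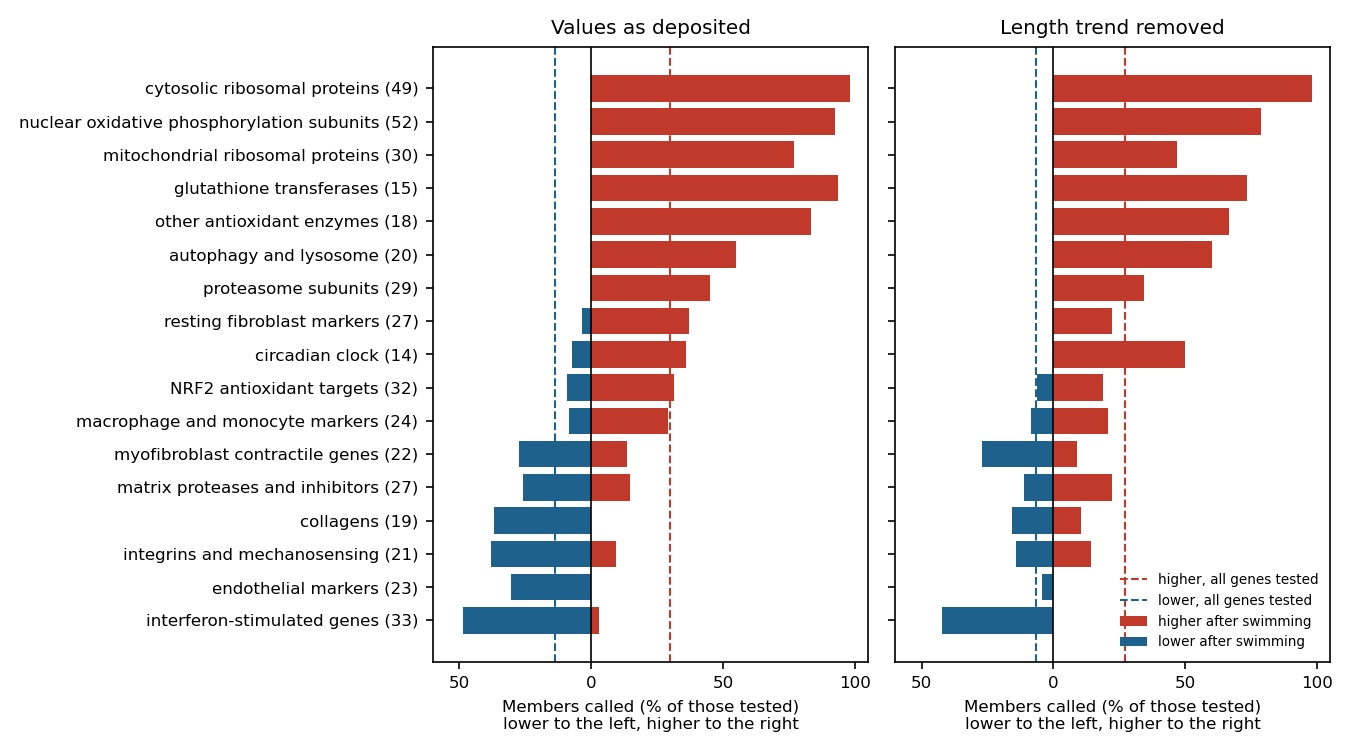
Percentage of the tested members of 17 gene lists called higher (to the right) or lower (to the left) after 10 days of swimming, on the values as deposited and with the length trend removed, with the number tested in brackets and dashed lines at the percentage over all genes tested (30% higher and 13.6% lower as deposited, 27.2% and 6.53% after removal). Ribosomal, respiratory and glutathione transferase genes reach far past the line for higher calls in both panels, and interferon-stimulated genes past the line for lower calls in both.

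Enzymes that detoxify peroxides and reactive compounds were higher after swimming, while the inducible stress markers Hmox1 and Nqo1 did not pass. Of 15 glutathione transferase genes tested, whose products couple glutathione to electrophiles, 14 were higher and none lower, and 11 were higher with the length trend removed (medians 1.16 and 0.65). Gsta3 stood at 26.1, 38.2 and 37.1 FPKM in swim libraries and at 5.74, 7.36 and 6.93 FPKM in sedentary libraries. Its log2 fold change was 2.17 ± 0.27 (SE, limma adjusted p = 3.23e-05), and 2.14 with the trend removed. Gstt1 was at 24.5, 39.1 and 34.2 FPKM against 6.96, 5.52 and 9.72 FPKM, a log2 fold change of 2.01 ± 0.26 (SE). The levels of Gsta3 and Gstt1 did not overlap between the groups, and the spread within each group was small beside the difference. Gsta1 and Gsta2, 2 near-identical neighbours whose reads cannot be fully told apart, each rose by 1.98. Mgst1, a membrane-bound transferase, rose by 1.58.

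Of 18 further antioxidant enzymes, 15 were higher and none lower, and 12 were higher with the trend removed. Gpx1, the main cytosolic glutathione peroxidase, went from 24.7, 25.3 and 31.4 FPKM to 90.0, 142 and 107 FPKM, a log2 fold change of 2.0 ± 0.31 (SE). Sod1, the cytosolic superoxide dismutase, rose by 1.62 ± 0.22 (SE), and the peroxiredoxins Prdx5 and Prdx2 by 1.62 and 1.60. None of these genes overlapped between groups, which was also so for 55.5% of all genes tested. The list of classical targets of NRF2, the transcription factor that drives the antioxidant response, did not move as a block: 10 of 32 were higher and 3 lower (6 and 2 with the trend removed), shares of members close to those over all genes. Ephx1, an epoxide hydrolase, rose from 21.4 to 24.7 FPKM to 63.4 to 74.1 FPKM (log2 fold change 1.57 ± 0.19, SE), whereas Abcc1, an exporter of glutathione conjugates, fell by 1.13, a call that was lost when the trend was removed. Hmox1, haem oxygenase 1, stood at 292, 144 and 289 FPKM against 235, 642 and 227 FPKM, and Nqo1 at about 1 FPKM or below in all but 1 sedentary library (2.68 FPKM). Their log2 fold changes were -0.50 ± 0.63 and -0.02 ± 0.23 (SE). The limma adjusted p was 0.554 and 0.945 in turn, although Nqo1 passed at 0.39 without sedentary library 2.

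The metallothioneins, small zinc-binding proteins that also scavenge radicals, were both about 1 log2 unit above sedentary, with 1 of them past the threshold. Mt1 was at 311, 295 and 358 FPKM after swimming and at 154, 171 and 124 FPKM in sedentary mice, a log2 fold change of 1.11 ± 0.24 (SE, limma adjusted p = 0.00156). Mt2 was at 598, 409 and 620 FPKM against 296, 341 and 174 FPKM, a log2 fold change of 1.03 ± 0.42 (SE, limma adjusted p = 0.0556). In both genes the lowest swim library was above the highest sedentary one. The transcripts are short, however, and with the length trend removed the log2 fold changes were 0.53 and 0.39 with neither past the threshold (limma adjusted p = 0.178 and 0.589). Under quantile normalization Mt1 lost its call and the sign of Mt2 turned to -0.13.

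Of 27 markers of resting fibroblasts tested, 10 were higher and 1 lower (6 and none with the trend removed), with shares of higher calls near the 30% and below the 27.2% of all genes. Under quantile normalization 1 was higher and 3 were lower. Beside Inmt these were led by Clec3b, tetranectin, which stood at 207, 284 and 264 FPKM against 99.4, 89.5 and 84.7 FPKM (log2 fold change 1.44 ± 0.36, SE), and by Gpx3, the secreted glutathione peroxidase, which rose by 1.06. The call for Clec3b was lost with the trend removed (0.84, limma adjusted p = 0.106), while that for Gpx3 was kept at 0.64. Tcf21, the transcription factor that defines the fibroblast lineage, stood at 50.2, 40.8 and 50.6 FPKM against 31.8, 43.2 and 16.9 FPKM and did not pass (0.69 ± 0.37, SE). The receptor Pdgfra was at 8.23 to 8.27 FPKM after swimming and at 8.44 to 11.2 FPKM in sedentary mice (-0.26 ± 0.27, SE). Both lineage genes were therefore present in all 6 libraries, as the fibroblast label requires. Hsd11b1, which regenerates active glucocorticoid inside cells, rose from 19.4, 27.8 and 22.4 FPKM to 53.3, 55.1 and 71.3 FPKM (1.33 ± 0.29, SE).

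Among 32 paracrine growth factors and receptors, 6 were higher and 2 lower, both shares below those of all genes (30% and 13.6%). Igfbp6, a binding protein that holds back IGF2, rose from 18.8 to 28.1 FPKM to 68.3 to 95.1 FPKM, a log2 fold change of 1.79 ± 0.26 (SE). Igfbp4, a binding protein that restrains IGF1, rose from 66.9 to 71.6 FPKM to 196 to 266 FPKM, a log2 fold change of 1.63 ± 0.22 (SE). Both calls held with the trend removed, at 1.22 and 1.82, and in both the groups lay well apart. Fgfr1, a fibroblast growth factor receptor, fell by 1.23, but its groups overlapped and the call was lost in fits without sedentary library 1 or 2 or without swim library 2 or 3.

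Of 14 genes of the circadian clock tested, 5 were higher (Dbp, Tef, Hlf, Cry1 and Cry2) and 1 lower (Clock), a share of higher calls near the 30% of all genes. With the trend removed 7 were higher and none lower. Dbp, a transcription factor that carries the clock signal to target genes, stood at 23, 39.1 and 24.9 FPKM after swimming and at 4.0, 1.04 and 10.1 FPKM in sedentary mice, a log2 fold change of 2.59 ± 0.56 (SE, limma adjusted p = 0.00183). Its relative Tef rose by 1.12 ± 0.23 (SE), with 1.82 to 4.54 FPKM in sedentary and 6.38 to 8.90 FPKM in swim libraries. Sedentary libraries differed among themselves in Dbp by more than the swim libraries did, although the groups did not overlap. Of 17 genes of the glucocorticoid and energy stress response, 4 were higher and 2 lower, both shares below those of all genes. Ddit4, an inhibitor of the growth regulator mTOR, rose from 13.2 to 15.3 FPKM up to 47.4 to 54.8 FPKM (1.78 ± 0.24, SE), and Tsc22d3, the glucocorticoid-induced leucine zipper, by 1.16.

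Collagen genes were called lower more often than higher on the values as deposited. Of 19 tested, none was higher and 7 were lower, with 2 higher and 3 lower once the length trend was removed (median transcript length of the list 5930 bases). The basement membrane collagens fell most. Col4a1 stood at 11.8, 8.77 and 10.6 FPKM after swimming and at 32.7, 25.9 and 25.6 FPKM in sedentary mice, a log2 fold change of -1.35 ± 0.22 (SE) and of -0.86 with the trend removed, called in both. Col4a2, encoded beside it and transcribed from the same promoter region, fell by 1.08 as deposited and by 0.60 with the trend removed. The main fibrillar collagens gave weaker results. Col1a1 was at 25.1, 24.3 and 18.9 FPKM against 29.6, 16.3 and 27.8 FPKM, with overlapping groups and a log2 fold change of -0.07 ± 0.33 (SE). Col3a1 was at 13.5, 11.6 and 9.54 FPKM against 28.8, 13.1 and 33.9 FPKM. Its call (-0.98 ± 0.36, SE, limma adjusted p = 0.0349) was lost with the trend removed and in fits without sedentary library 1 or 3 or swim library 2 or 3, and the groups overlapped.

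Enzymes and chaperones that fold and secrete collagen were split. Of 24 collagen maturation genes tested, 8 were higher and 3 lower, shares near the 30% and 13.6% of all genes. With the trend removed 10 were higher and none lower, and under quantile normalization 4 were higher and 5 lower. Ppib, cyclophilin B, a prolyl isomerase of procollagen, rose from 32.0, 41.4 and 30.1 FPKM to 82.8, 103 and 90.3 FPKM (1.40 ± 0.19, SE; 1.5 with the trend removed). Pcolce2, an enhancer of procollagen C-proteinase, rose by 0.98 and Crtap, a partner of prolyl hydroxylase, by 0.94. The crosslinking enzyme Loxl2 fell by 1.19, a call lost with the trend removed and without sedentary library 1 (limma adjusted p = 0.0536 with the trend removed).

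Among 34 elastic fibre, proteoglycan and laminin genes, 6 were higher and 7 lower, against 30% and 13.6% of all genes. Mgp, a calcification inhibitor, was the most abundant of those named, at 798, 968 and 988 FPKM against 295, 389 and 367 FPKM (1.39 ± 0.18, SE). Fbn1, fibrillin, fell from 27.7, 14.7 and 14.6 FPKM to 7.21, 4.59 and 4.97 FPKM (-1.56 ± 0.31, SE). Lama2, a laminin chain, fell by 1.57. The calls of Mgp, Fbn1 and Lama2 were kept with the trend removed, at 0.74, -0.85 and -0.93. Vcan, versican, fell by 1.20 but not past the threshold after removal (-0.48). Of 20 matricellular proteins, 1 was higher (Wisp2) and 4 were lower (Thbs1, Tnc, Sparcl1 and Thbs2), against the same shares of all genes. Postn, periostin, a marker of activated fibroblasts, was at 5.52, 4.22 and 5.08 FPKM against 9.60, 4.44 and 9.68 FPKM and did not pass (-0.52 ± 0.36, SE). Thbs1, thrombospondin 1, stood at 124, 25 and 117 FPKM against 495, 397 and 164 FPKM, and its call (-2.14 ± 0.76, SE) was lost in 3 of the fits that each left out 1 library and with the trend removed.

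Of 27 matrix proteases and inhibitors, 4 were higher and 7 lower, against 30% and 13.6% of all genes. Cst3, cystatin C, an inhibitor of cathepsins, rose from 148, 255 and 134 FPKM to 525, 606 and 566 FPKM (1.71 ± 0.23, SE). Mmp14, a membrane-bound collagenase, fell from 17.6, 19.2 and 10.2 FPKM to 6.27, 4.55 and 6.55 FPKM (-1.26 ± 0.27, SE; -1.18 with the trend removed). Timp1, an inhibitor of matrix metalloproteinases that fibrotic hearts raise, was at 6.69, 8.58 and 8.89 FPKM against 16.7, 18.1 and 6.20 FPKM and did not pass as deposited (-0.58 ± 0.45, SE, limma adjusted p = 0.314), but was lower with the trend removed (-1.20, limma adjusted p = 0.0406).

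Contractile and adhesion genes tended lower among those that passed. Of 22 myofibroblast contractile genes tested, 3 were higher and 6 lower, and 2 and 6 with the trend removed, the lower share standing above the 6.53% of all genes. Cald1, caldesmon, which regulates actin and myosin, fell from 15.5, 14.1 and 8.02 FPKM to 5.76, 4.68 and 5.05 FPKM (-1.09 ± 0.30, SE), and Vcl, the adhesion protein vinculin, by 0.98. Myl6, a non-muscle myosin light chain, rose by 1.51 ± 0.20 (SE), from 76.0 to 102 FPKM up to 235 to 280 FPKM. Acta2, smooth muscle actin, the defining myofibroblast gene, was at 8.49, 5.77 and 5.35 FPKM against 10.3, 16.5 and 5.04 FPKM, with overlapping groups and no call (-0.52 ± 0.39, SE, limma adjusted p = 0.299). Of 21 integrin and mechanosensing genes, 2 were higher and 8 lower, and 3 and 3 with the trend removed. Itgav, the integrin chain that activates latent TGF-beta, fell by 1.23 (0.71 with the trend removed). Of 26 genes of TGF-beta, BMP and activin signalling, 4 were higher and 4 lower, against 30% and 13.6% of all genes. The receptor Tgfbr1 rose from 5.09, 6.5 and 5.63 FPKM to 10.4, 10.8 and 10.9 FPKM (0.80 ± 0.22, SE), and the ligand Tgfb2 fell by 1.20, a call lost with the trend removed.

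Interferon-stimulated genes were the list with the largest share of lower calls. Of 33 tested, 16 were lower and 1 higher (median -1.02), and 14 were lower and none higher with the length trend removed (median -1.19). The list fell against the same sedentary libraries in the compared groups too. After 4 days of swimming 21 were lower and 1 higher (median -1.69), when 26.3% of all genes were lower. After 10 day TAC 27 were lower and 1 higher (median -1.93), when 27% of all genes were lower. Directly against TAC, 6 were higher after 10 days of swimming and 2 lower (median 0.56), against 10.9% and 13.2% of all genes. Mx1, an antiviral GTPase, stood at 0.987, 0.335 and 0.829 FPKM after swimming and at 8.60, 7.07 and 2.80 FPKM in sedentary mice, a log2 fold change of -1.97 ± 0.35 (SE, limma adjusted p = 0.00051). Gbp2, a guanylate-binding protein of the interferon-gamma response, was at 5.73, 3.60 and 4.06 FPKM against 23.1, 24.9 and 7.56 FPKM (-1.70 ± 0.40, SE). Its relatives Gbp4, Gbp6 and Gbp10, close copies of each other between which reads can be split, fell by 1.83, 1.82 and 1.82. Iigp1, an immunity-related GTPase, fell by 1.81. In none of these genes did the groups overlap, and sedentary library 3 was always the lowest of the sedentary ones. Over the list, 11 of 33 genes were lower and 1 higher without overlap, while 55.5% of all genes tested had no overlap in either direction. Bst2, tetherin, was the 1 member that rose (0.70, not called with the trend removed).

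Interferon acts on such genes through a response element that binds the STAT and IRF factors, and promoter sequence from RefSeq (GRCm38.p6) was searched for its core, 2 copies of GAAA separated by any 2 bases, on both strands within 250 bases before the gene start. The core was present in 12 of 25 tested interferon-stimulated genes with a promoter in the table (48%), against 3.60% of 6882 tested genes and 3.46% of all 27025 genes. Among the 10 lower members with a promoter it was found in 3, namely Gbp2, Gbp3 and Stat2. The windows of those 3 and of Bst2, which rose, are shown 5′ to 3′ on the gene's strand because they set the same letters beside opposite changes. Capitals mark the match, as that core or as its complement, 2 copies of TTTC separated by any 2 bases, and 2 overlapping matches are joined in Gbp3 and Bst2.
Gbp2, chr3:142620594-142620623, plus strand: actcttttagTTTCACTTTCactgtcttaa
Gbp3, chr3:142559992-142560021, plus strand: gacacagTTTCAGTTTCTATTTCccagatc
Stat2, chr10:128270266-128270295, plus strand: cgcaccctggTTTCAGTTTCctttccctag
Bst2, chr8:71537580-71537609, minus strand: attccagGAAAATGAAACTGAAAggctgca
The matches begin 59, 45, 222 and 130 bases before the start in that order. The log2 fold changes were -1.70 for Gbp2, -1.59 for Gbp3, -1.49 for Stat2 and 0.70 for Bst2. A match is a description of the letters and not of binding.

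The fall in interferon genes moved with other features of the libraries. Sedentary library 3 had the lowest level of its group for all 33 interferon-stimulated genes, and swim library 2 had the lowest of its group for 29 of 33. Those were the libraries with the most Hba-a1 in their groups. The summed FPKM of the list was 848, 309 and 671 in the swim libraries and 1242, 1870 and 275 in the sedentary libraries, so the sums overlapped. The number of lower calls was 23 without sedentary library 3 and 11 without sedentary library 1, sedentary library 2 or swim library 2, each fit leaving out 1 library. The part of haemoglobin, or of what varied with it, in the result was not tested. Of 28 chemokine and cytokine genes, 3 were higher (Ccl4, Ccl6 and Ccl19) and 3 lower (Ccl5, Cxcl5 and Cx3cl1), both shares below the 30% and 13.6% of all genes. With the trend removed none was higher and 3 were lower, against 27.2% and 6.53% of all genes. Ccl4, which attracts monocytes, stood at 683, 337 and 520 FPKM against 320, 253 and 153 FPKM, and its call (1.09 ± 0.35, SE) was lost with the trend removed and without sedentary library 3 or swim library 1 or 3.

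**Figure D4:**
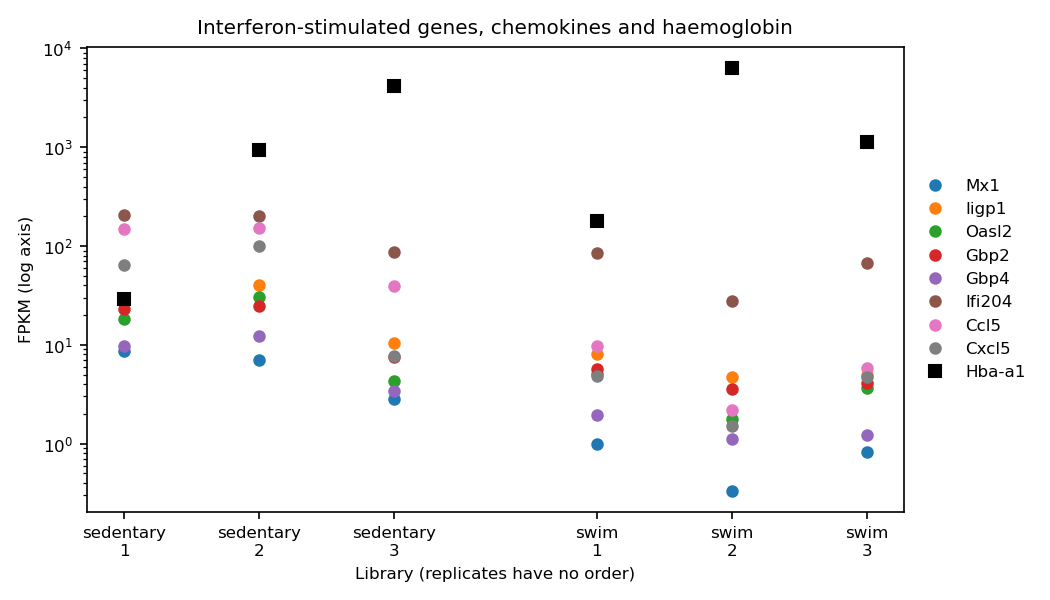
FPKM (log axis) of 6 interferon-stimulated genes, the chemokines Ccl5 and Cxcl5 and the haemoglobin gene Hba-a1 (black squares) in each sedentary and each 10 day swim library. Sedentary library 3 has the lowest interferon gene levels of its group and Hba-a1 at 4201 FPKM, and swim library 2 has the lowest of its group and Hba-a1 at 6313 FPKM. The call of Oasl2 was lost in fits without sedentary library 1 or 2 or swim library 2. That of Ifi204 was lost in the same fits and without swim library 3.

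Markers of other heart cells were measured in every library. In bulk samples fewer cells of a type and less RNA per cell cannot be told apart. Of 23 endothelial markers tested, none was higher and 7 were lower, against 30% and 13.6% of all genes. After removal of the length trend 1 was lower, a share below the 6.53% of all genes. The summed FPKM of these markers ranged from 205 to 358 in swim and 177 to 291 in sedentary libraries. Cdh5, the endothelial cadherin, fell from 11.9, 17.9 and 14.4 FPKM to 4.18, 4.45 and 3.74 FPKM (-1.60 ± 0.30, SE; -1.38 with the trend removed). Pecam1 was at 6.78, 9.14 and 6.98 FPKM against 11.7, 14.7 and 17.0 FPKM, without overlap but not past the threshold (limma adjusted p = 0.0723). Selp, described above, is also made by endothelium, and the part of endothelial RNA in its fall was not tested.

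Of 24 macrophage and monocyte markers tested, 7 were higher and 2 lower, a share of higher calls near the 30% of all genes (5 and 2 with the trend removed). Their sums were 1868 to 2268 FPKM in swim and 1258 to 1782 FPKM in sedentary libraries. The complement genes C1qa and C1qc, made by tissue macrophages, rose by 1.94 ± 0.28 and 1.70 ± 0.26 (SE). C1qa stood at 224, 249 and 225 FPKM against 53.5, 73.5 and 54.0 FPKM. Ptprc, the pan-leukocyte antigen CD45, went the other way, at 3.23, 1.42 and 2.43 FPKM against 8.59, 5.97 and 3.58 FPKM (-1.04 ± 0.25, SE), a call lost with the trend removed. Of 22 cardiomyocyte markers, none was higher and 2 lower (Myh6 and Myh7, near-identical myosin chains whose calls were lost without any 1 of 4 libraries). Both shares were below the 30% and 13.6% of all genes. Tnnt2, cardiac troponin T, was at 11.9, 3.59 and 4.06 FPKM against 5.67, 10.0 and 1.76 FPKM and did not pass. No tested neutrophil, lymphocyte, erythroid, adipocyte, epicardial or Schwann cell marker passed in either direction on the values as deposited, while 1 neutrophil and 1 adipocyte marker were lower with the trend removed. Of 12 pericyte and smooth muscle markers, 2 were higher and 2 lower (4 and 1 with the trend removed). Over all genes 30% and 13.6% were (27.2% and 6.53% with the trend removed). Of the listed markers 15 of 18 lymphocyte and 8 of 9 Schwann cell genes were under 1 FPKM in all 6 libraries. Adipocyte and epicardial genes under 1 FPKM in all 6 libraries numbered 8 of 12 and 7 of 10.

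Few genes separated 10 days of swimming from 4 days. Of 9425 genes, 30 were called (0.318%) in limma, 1 higher (0.0106%, the predicted gene G530011O06Rik) and 29 lower (0.308%) after 10 days, while 2251 genes had an unadjusted p under 0.05. No list of fibroblast, matrix, antioxidant, respiratory or interferon genes had a called member. Inmt stood at 59.8, 135 and 119 FPKM after 4 days and at 78.1 to 118 FPKM after 10 days (difference -0.02 ± 0.41 on the log2 scale, SE). Gsta3 was at 19.3, 28.2 and 14.4 FPKM after 4 days, and the 10 day group was higher by 0.72 ± 0.27 (SE) without passing (limma adjusted p = 0.159). Mt2 was at 277, 88.9 and 357 FPKM after 4 days, below all 10 day libraries (difference 1.36 ± 0.42, SE, limma adjusted p = 0.14). With so few libraries a p above the threshold does not show that the times act alike.

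Most of the genes lower after 10 than after 4 days encode histones. Of 63 histone genes tested, a group chosen after its values were seen, 24 were lower after 10 than after 4 days and none higher, and 8 were lower and none higher with the length trend removed. Against sedentary fibroblasts 36 were higher and none lower after 10 days, and 62 higher and none lower after 4 days, when 38.2% of all genes were called higher and 26.3% lower. Both comparisons share the sedentary libraries. Hist1h1c, a linker histone, stood at 3.41, 3.43 and 5.03 FPKM in sedentary mice, at 73.9, 70.1 and 38.2 FPKM after 4 days and at 7.33, 12.9 and 8.83 FPKM after 10 days. The 10 day level was lower than the 4 day level by 2.51 ± 0.36 (log2, SE, limma adjusted p = 0.00375). Replication-dependent histone messages normally lack a poly-A tail, and they are short: with the length trend removed 7 were higher and 3 lower after 10 days against sedentary. Total FPKM was 197221 to 205139 in the 4 day libraries, so the libraries of the 2 times also differed in composition, and the part of this in the histone result was not tested. Ifi27l2a and Ifi27l2b, neighbouring interferon-inducible genes, were lower after 10 than after 4 days by 1.72 and 1.66, with Ifi27l2a at 136, 186 and 156 FPKM against 574, 549 and 453 FPKM.

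Pressure overload for the same 10 days gave a different pattern from swimming. Of 9425 genes, 2279 were called between 10 day swim and 10 day TAC fibroblasts (24.2%), with 1031 higher after swimming (10.9%) and 1248 lower (13.2%). No sedentary library enters this comparison, and the length slopes of the groups were nearer each other (-0.623 to -0.779 in TAC). With the length trend removed 1118 genes were higher and 1378 lower, and with the length and GC trends removed 924 and 1055. Spearman's rho between the log2 fold change and the GC content of the transcript was -0.423, against 0.239 for swim against sedentary. With length it was 0.229. Beyond the counts with both trends removed, the part of GC content in this comparison was not tested. Counts fell to 336 higher and 770 lower without TAC library 3, 386 and 642 without swim library 1, and 400 and 660 without swim library 3.

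Collagens were lower after swimming than after TAC, while other matrix lists were split. Of 19 collagens, 16 were lower and none higher. Over all genes tested, 13.2% were lower and 10.9% higher, the shares to set beside each count in this paragraph. Of 34 elastic fibre, proteoglycan and laminin genes, 14 were lower and 8 higher (Lama2 by 0.94). Of 20 matricellular proteins 7 were lower and 5 higher, and of 27 matrix proteases and inhibitors 5 were lower and 7 higher. The lower share of the proteases and inhibitors was near that of all genes. Col1a1 stood at 25.1, 24.3 and 18.9 FPKM after swimming and at 129, 164 and 253 FPKM after TAC (difference -2.90 ± 0.33, SE, limma adjusted p = 1.74e-05). Col3a1 was at 91.1, 89.0 and 66.0 FPKM after TAC (-2.73 ± 0.36), Postn at 50, 69.1 and 44.9 FPKM (-3.21 ± 0.36) and Col4a2 at 28.1, 37.3 and 27.6 FPKM (-2.29 ± 0.19, all SE). Every swim library was below every TAC library in these 4 genes. Fscn1, an actin-bundling protein, was lower by 2.23, Mfap4, a microfibril protein, by 2.08, Timp1 by 2.40 and Acta2 by 1.62. Of 22 contractile genes, 9 were lower after swimming than after TAC and none higher, and of 21 cell cycle genes 11 were lower and 1 higher. Markers of other cells were lower too: 9 of 22 cardiomyocyte, 13 of 23 endothelial and 7 of 12 pericyte and smooth muscle markers were lower after swimming than after TAC, and the part of these cells in the comparison was not tested.

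Many resting fibroblast markers and glutathione transferases were higher after swimming than after TAC. Of 27 resting fibroblast markers, 17 were higher and 4 lower, and of 15 glutathione transferases 7 were higher and 1 lower. Over all genes tested, 10.9% were higher and 13.2% lower. Against the shared sedentary libraries, 10 of 15 transferases were higher and none lower after TAC (median 0.62), when 38.8% of all genes were higher. After 10 days of swimming 14 were higher and none lower (median 1.16). Of the resting markers, 8 were higher and 13 lower after TAC against sedentary. Of 18 other antioxidant enzymes, however, 2 were higher and 4 lower after swimming than after TAC, among them Prdx2, which was lower by 0.84. Inmt stood at 6.95, 3.68 and 5.87 FPKM after TAC, below every sedentary library, and the swim group was higher than TAC by 3.96 ± 0.41 (log2, SE, limma adjusted p = 8e-06). Against sedentary libraries, which both comparisons share, its log2 fold change was 2.84 after swimming and -1.12 after TAC. Gsta3 was at 4.86, 2.58 and 2.07 FPKM after TAC (swim higher by 3.10 ± 0.27, SE), and Hsd11b1 at 11.4, 6.12 and 4.11 FPKM (higher by 2.98 ± 0.29, SE). Penk, the precursor of enkephalin peptides, and Myoc, myocilin, were higher by 3.02 and 3.00. Mt2 was at 56.0, 40.4 and 40.8 FPKM after TAC, and swim libraries were higher by 3.53 ± 0.42 (SE, limma adjusted p = 3.02e-05). Of 28 chemokine and cytokine genes 14 were higher after swimming than after TAC and 2 lower. Ribosomal proteins did not separate the groups as they did swim from sedentary: 3 of 49 were higher and none lower, at a median of -0.01. Oxidative phosphorylation subunits were lower after swimming than after TAC in 11 of 52 and higher in none (median -0.57), and mitochondrial ribosomal proteins in 8 of 30 and none. Against the shared sedentary libraries, 49 of the 52 subunits were higher after TAC (median 1.91) and 48 after swimming (median 1.33).

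**Figure D5:**
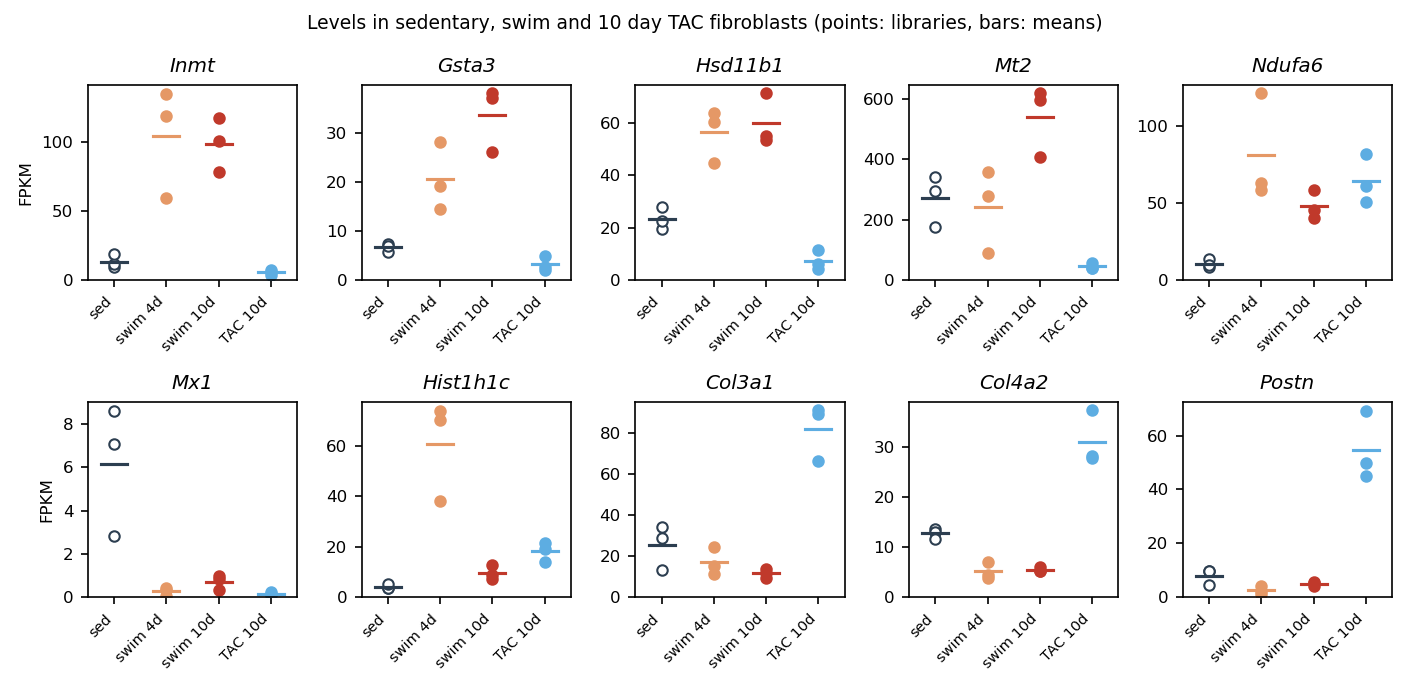
FPKM of 10 genes in sedentary, 4 day swim, 10 day swim and 10 day TAC fibroblasts, with 1 point for each of the 3 libraries a group and a bar at the mean. Inmt, Gsta3, Hsd11b1 and Mt2 are lowest after TAC and highest or near highest after 10 days of swimming, Col3a1, Col4a2 and Postn are highest after TAC, and Hist1h1c is high after 4 days of swimming (38.2 to 73.9 FPKM) and lower after 10 days (7.33 to 12.9 FPKM).

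The authors' deposited table of their own comparison of 10 day swim with sedentary fibroblasts holds 3684 significant genes, 2167 higher and 1517 lower, of 13057 they tested. Of these, 2800 were also called here, and all 2800 had the same direction. For 10 day against 4 day swim the authors' deposited table holds 695 significant genes, 484 higher and 211 lower, of which 27 were called here, so the count of differences between the 2 swim times depends on the method. For swim against 10 day TAC it holds 2946, of which 1720 were called here.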

How the data were processed

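Poly-A RNA was extracted with a column kit and made into stranded libraries for an Illumina HiSeq, per the labels' protocols. The authors deposited FPKM values for 23359 genes in 22 libraries, computed with Cufflinks 2.0.2 on mm10 per the submitters' processing notes. The annotation and the aligner were not given in the sources used here. Comparison tables deposited by the authors hold p-values, q-values and log2 fold changes (only their sign was used) from pooled replicates. Columns of confidence bounds (44) were not used. For 27 genes whose symbols a spreadsheet had made into dates, the symbol was recovered from the locus.

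The test fitted log2(FPKM + 1) in R 4.3.3 with limma 3.58.1, using its trend and robust settings. It covered the genes that reached 1 FPKM in 2 or more of the 19 fibroblast libraries, with 7 group means in 1 fit. The added 1 understates folds of low genes. Calls used a Benjamini-Hochberg adjusted p under 0.05 over all genes tested, and this tool and adjustment stand behind every adjusted p given. Since separate animals are not stated for the libraries, each p-value reflects variation between these libraries alone, and that variation could be technical. The FPKM table holds no counts, so depth is unknown. The length trend was a natural spline with 4 degrees of freedom on the log2 length of the longest GENCODE M21 transcript, fitted to each library's deviations from the gene means. The test was checked on simulated data.

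The comparison, the 43 gene lists (1034 entries) and the named genes were chosen with earlier results of these data known. Lists are described by counts of called members and medians, with no test of the list. Named genes were the 10 largest rises and falls with a mean of 5 FPKM or more in either group that were also called with the trend removed and did not overlap, up to 4 called members of each list, 6 in each direction of the direct comparisons, and 16 genes named whatever their values (Acta2, Col1a1, Hmox1, Mt1, Tcf21, Ptprc, Nqo1, Rn45s, Col3a1, Pdgfra, Mt2, Pecam1, Timp1, Tnnt2, Postn and Myh6). Other list members, named to show what a count holds, were chosen after their values were seen. Alternatives were other pseudocounts, filters, scalings, length and GC corrections, fits of 2 groups, plain limma and fits without 1 library. Results for 2 of the named genes are not reported here.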

Additional observations from a re-analysis of the deposited data

Results flagged for a closer look

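The 6 genes that the naming rule selected differed between 10 and 4 days of swimming by a direct limma test of the difference, all lower after 10 days and all higher than sedentary at both times. The 10 day minus 4 day differences on the log2 scale were -2.51 for Hist1h1c, -1.32 for Hist1h2bf and -1.34 for Hist1h2bj (histone genes), -1.72 for Ifi27l2a and -1.66 for Ifi27l2b (interferon-inducible neighbours), and -1.54 for Sdf2l1 (a chaperone cofactor of the endoplasmic reticulum). Sdf2l1 stood at 20.7, 24.6 and 12.8 FPKM after 4 days and at 4.66, 7.18 and 5.75 FPKM after 10 days. Hist1h2bf, Hist1h2bj and Ifi27l2a lost the call with the length trend removed (differences of -0.93, -0.96 and -1.33). All 6 lost the call in a fit of the 2 swim groups alone, where 0 genes were called lower.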

How the results depend on the processing

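Of 148 named genes called against sedentary, 89 were called with the same sign under every alternative run. The length trend removed 38 of the calls, quantile normalization 29 and a fit without 1 library 30; the cause was not tested. Against sedentary, higher calls were 1747 with a filter of 5 FPKM in 3 or more libraries (3923 genes tested). Lower calls were 308 with that filter, 2127 with no filter, 1986 under median scaling and 2098 under quantile normalization. They were 608 with the length trend removed, 1030 with the median-transcript length trend removed and 577 with the length and GC trends removed. Leaving out 1 library gave 2127 to 3050 higher and 787 to 1515 lower calls, with 813 lower without sedentary library 1 and 787 without swim library 2.

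For 10 against 4 days of swimming, higher calls were 0 with the length trend removed by any of the 3 ways, with a pseudocount of 0.1 or under quantile normalization, and 3 with a pseudocount of 5. Lower calls were 10 with the length or the length and GC trends removed, 44 in plain limma, 17 with no filter, 0 in a fit of the 2 groups, 8 and 52 with pseudocounts of 0.1 and 5, and 18 under quantile normalization. Leaving out 1 library gave 0 to 14 higher and 5 to 107 lower calls, the 14 and 107 coming without 4 day library 3. Against TAC the stricter filter gave 603 higher and 537 lower calls, and leaving out 1 library gave 336 to 1231 higher and 642 to 1232 lower.

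The sign turned for Col1a1 (0.36 with the length and 0.30 with the length and GC trends removed, and -0.33 to 0.079 without 1 library) and Pdgfra (0.24 and 0.22). It turned under quantile normalization for Mt2 (-0.13) and Ccl4 (-0.14). Nqo1 turned to 0.11 with a pseudocount of 0.1, to 0.0075 with the median-transcript length trend removed, and ranged from -0.28 to 0.39 without 1 library. Tnnt2 ranged from -0.36 to 0.64 without 1 library. No paired analysis was possible because the replicate numbers follow accession order and pair no libraries. Without read counts, the depth behind low values is unknown.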

Other observations

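Autophagy, lysosome and proteasome genes were called higher more often than all genes after 10 days of swimming. Of 20 autophagy and lysosome genes tested, 11 were higher and none lower, and 12 were higher with the length trend removed, against 30% and 27.2% of all genes. Gabarap, which builds autophagosomes, rose from 39.8, 54.6 and 38.9 FPKM to 92.4, 111 and 102 FPKM (log2 fold change 1.19 ± 0.20, SE). The lysosomal tetraspanin Cd63 rose by 0.92. Of 29 proteasome subunits, 13 were higher and none lower (10 with the trend removed). Under quantile normalization 6 autophagy and lysosome genes were higher and 2 lower, and 9 proteasome subunits higher and 3 lower. Psmb1, a core subunit, stood at 26.4, 34.0 and 30.4 FPKM against 9.04, 14.5 and 7.99 FPKM, and the groups did not overlap. The endoplasmic reticulum stress list was mixed, with 6 of 24 higher and 3 lower, near the shares of all genes (3 and 1 with the trend removed). Xbp1, a transcription factor of the unfolded protein response, rose by 0.95, as did Herpud1 by 1.02.

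Metabolic genes were called in both directions, at shares near those of all genes. Of 28 fatty acid oxidation genes, 10 were higher and 3 lower as deposited, against 30% and 13.6% of all genes (6 and 3 with the trend removed). The matrix enzyme Echs1 rose by 1.14 ± 0.20 (SE), whereas Lpl, lipoprotein lipase, fell from 23, 26.6 and 18.5 FPKM to 9.37, 6.76 and 7.59 FPKM, and Cd36, a fatty acid importer, from 29, 46.4 and 32.6 FPKM to 18, 16.5 and 15.4 FPKM. All 3 calls held with the trend removed. Of 21 glycolysis genes, 7 were higher and 3 lower, again near the shares of all genes. Ptgis, prostacyclin synthase, rose from 21.9, 27.2 and 18.5 FPKM to 54, 67.8 and 65.6 FPKM (1.44 ± 0.18, SE). Cell cycle genes were near sedentary levels, with 0 of 21 higher and 1 lower (Ccnd2) by limma.

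Of 21 Wnt and Notch genes, 5 were higher and 3 lower, and 11 were higher and 1 lower with the trend removed, against 27.2% and 6.53% of all genes. Of 28 immediate early genes, which cells switch on within minutes of a stimulus or of dissociation, 2 were higher and none lower. Heat shock proteins had 2 of 20 higher and 3 lower, and complement and coagulation genes 4 of 19 higher and 2 lower, against 30% and 13.6% of all genes. Class I MHC and immunoproteasome genes, many of which interferon also raises, had 4 of 16 higher and 1 lower, both shares below those of all genes.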
